A study of Mus musculus with 2 samples.

Results

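A list of 8 mouse microRNAs (miRNAs) commonly linked to inflammation, microglia and blood-derived immune cells was followed in small RNA sequencing of whole brain: mmu-miR-146a, mmu-miR-146b, mmu-miR-155, mmu-miR-21, mmu-miR-223, mmu-miR-142-3p, mmu-miR-142-5p and mmu-miR-150. They were listed by name and not by a threshold on their reads, with earlier results of these data known. Of the 8, 7 were counted here and 4 had at least 10 reads in a library, beside 339 distinct known miRNA starts in all, of which 268 had at least 10 reads. mmu-miR-150 was not analysed here. The young library came from brains of mice aged 5 months and the old library from mice aged 24 to 25 months, all male C57BL/6J, a common inbred strain. Each library combined the cDNA of 2 mice, so each age is 1 sample and the spread between mice cannot be measured. The depth was 4523267 genome-aligned reads in the young library and 6658732 in the old one, so that 1 read was worth 0.221 and 0.150 RPM (reads per 1000000 genome-aligned reads). Every p-value and 95% interval below covers the counting of reads in these 2 libraries, not the difference between ages, and reads amplified by PCR are not independent molecules.

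A miRNA is a short RNA cut from a hairpin precursor, and its seed, the bases just behind the 5′ end, pairs with target messenger RNAs and lowers their output. miR-146a and miR-146b are induced by NF-κB signalling and damp the Toll-like receptor pathway, whereas miR-155 is induced in activated macrophages and microglia and promotes inflammatory output. miR-142 and miR-223 are made mainly in cells of the blood-forming (haematopoietic) lineage, which in brain include microglia and the blood cells left in vessels. miR-21 is made in many cell types and rises in injured tissue.

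The mature sequences of the 7 counted miRNAs (RefSeq, all 7 found), with the seed (bases 2 to 8) in capitals, are shown because the counts below are counts of reads that begin with them:
mmu-miR-146a: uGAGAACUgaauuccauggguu
mmu-miR-146b: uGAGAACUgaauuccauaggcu
mmu-miR-155: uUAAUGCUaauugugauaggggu
mmu-miR-21: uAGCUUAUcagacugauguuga
mmu-miR-223: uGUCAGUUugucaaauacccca
mmu-miR-142-3p: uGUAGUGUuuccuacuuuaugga
mmu-miR-142-5p: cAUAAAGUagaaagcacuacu
miR-146a and miR-146b share a seed and differ by G18A and U21C (the base of miR-146a, the position from the 5′ end, the base of miR-146b). None of the other 5 shared its seed with another known miRNA counted here.

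The genes were placed by perfect matches of the sequences in the assembly NCBIM37 (mm9). The miR-146a sequence lies at chr11:43187937-43187958 on the minus strand, in the miRNA gene Mir146. The miR-146b sequence lies at chr19:46417280-46417301 on the plus strand, in Mir146b inside the protein-coding gene Tmem180, and it matched at 3 places, all inside Tmem180, so its reads cannot be told apart between them. miR-155 lies at chr16:84714388-84714410 on the plus strand, in an exon of the long non-coding Mir155 transcript. miR-21 lies at chr11:86397622-86397643 on the minus strand, in an exon that is annotated as untranslated region of Vmp1. miR-223 lies at chrX:93438223-93438244 on the plus strand, in an exon of the non-coding transcript F630028O10Rik. Both strands of miR-142 come from 1 hairpin on chromosome 11, with miR-142-5p at chr11:87570369-87570389 and miR-142-3p at chr11:87570405-87570427, both on the plus strand in Mir142, inside the non-coding gene A430104N18Rik. Apart from miR-146b, each sequence matched the genome once.

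The levels of the members spanned more than 3 orders of magnitude and kept the same order at both ages. All reads that share the first 18 nucleotides of the counted sequence (the 18-nt start) were added up. mmu-miR-21 was the most read, with 10015 reads (2214 RPM) in the young and 14622 reads (2196 RPM) in the old library. mmu-miR-146b followed with 3607 reads (797 RPM) young and 3518 (528 RPM) old, then mmu-miR-146a with 414 (91.5 RPM) and 403 (60.5 RPM), and mmu-miR-142-5p with 127 (28.1 RPM) and 268 (40.2 RPM). These 4 stood apart from each other in both libraries, since their 95% Poisson intervals did not overlap. mmu-miR-223 had 4 reads young and 5 old. mmu-miR-155 had 2 young and 0 old. mmu-miR-142-3p had 0 in both at its annotated start, which allows up to 0.663 RPM young and 0.451 RPM old (3 reads). Neighbours in order among these last 3 were not distinguishable (exact binomial test, two-sided, p = 0.688 for miR-223 against miR-155 and 0.50 for miR-155 against miR-142-3p in the young library, 0.0625 for miR-223 against miR-155 in the old one).

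**Figure D1:**
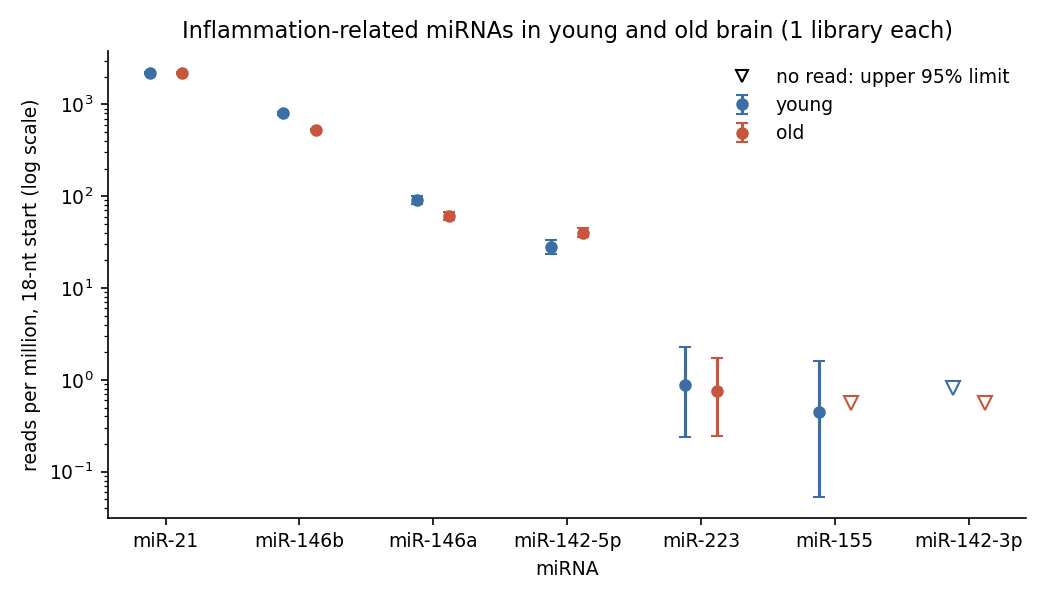
Level of each counted miRNA in the young (blue) and old (red) library, as RPM of its 18-nt start on a log axis; bars are 95% Poisson intervals of the count and open triangles the upper limit where no read was found. miR-21 stands at 2214 and 2196 RPM in both libraries, whereas miR-223, miR-155 and miR-142-3p stand near or under 1 RPM.

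Between the libraries the 4 members with enough reads went different ways. Normalized to total reads, miR-146a and miR-146b were lower in the old library, miR-21 was level, and miR-142-5p was higher. This has to be read against all known miRNAs, most of which were lower: of 268 starts, 66.4% were called lower and 9.33% higher (exact binomial test, Benjamini-Hochberg adjusted p under 0.05), and the median log2 ratio of old over young was -0.72 (quartiles -1.09 and -0.19). By size alone, 31% of starts were at least 2-fold lower and 2.24% at least 2-fold higher, and no member passed 2-fold either way by its start. Of the 4 members, 2 were called lower, 1 higher and 1 neither, and their median log2 ratio was -0.30. Whole brain was sequenced, so fewer cells of a type and less RNA per cell cannot be told apart.

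The direction of 3 of the 4 members depended on the scaling, because other scalings moved the median of all starts. Depth counted over known miRNA reads shifted that median by -0.062, total reads without let-7, the most abundant family here, by 0.37, DESeq2 size factors by 0.72 and TMM factors by 0.73. Relative to the median of all starts, which no scaling by depth changes, miR-146a lay 0.12 above, miR-146b 0.12 above, miR-21 0.70 above and miR-142-5p 1.23 above on the log2 scale.

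**Figure D2:**
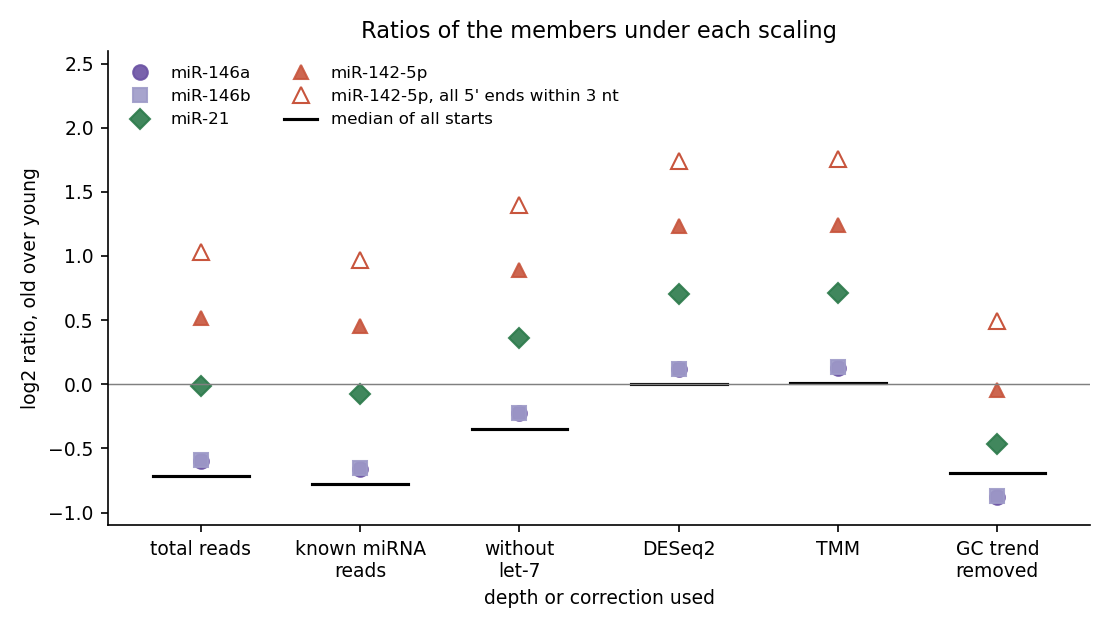
Log2 ratio of old over young for the 4 members with at least 10 reads (filled symbols) and for miR-142-5p counted over all 5′ ends within 3 nt (open triangles), under 5 scalings of depth and after removal of the trend on GC content; black bars are the median of all 268 starts. The order of the members is the same in every column, while miR-146a, miR-146b and miR-21 cross 0 under DESeq2 and TMM, and the 18-nt start of miR-142-5p falls to -0.044 with the GC trend removed.

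mmu-miR-146a, the feedback inhibitor of Toll-like receptor signalling, had nearly the same raw count in both libraries, 414 and 403, although the old library was 1.47 times as deep. Its log2 ratio was -0.60 (95% interval -0.80 to -0.40; exact binomial test, adjusted p = 9.14e-09), and it ranked 125 of 268 starts from the highest ratio down, close to the middle. With TMM or DESeq2 factors it was 0.13 or 0.12 and not called. mmu-miR-146b, its seed relative from another chromosome, had a log2 ratio of -0.59 (-0.66 to -0.53; exact binomial test, adjusted p = 1.28e-66) and ranked 124. Under TMM and DESeq2 it was 0.13 and 0.12 and was called higher. With the GC trend removed both were called lower, miR-146a at -0.88 and miR-146b at -0.87, against a median of -0.69 for all starts. By total reads, each of the 2 ratios lay inside the interval of the other. The pair shares a seed and no locus, and other pairs of miRNAs were not compared in this way.

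The 2 relatives are told apart by their bases at positions 18 and 21. Of the reads with the miR-146a start, 391 young and 379 old carried the miR-146a base at position 21 and 1 and 3 the miR-146b base, and of the reads with the miR-146b start, 3549 and 3468 carried the miR-146b base and 9 and 10 the miR-146a base. Almost all their reads began at the annotated 5′ end, 98.6% young and 97.6% old for miR-146a, and 99.7% and 99.5% for miR-146b. Reads that begin 1 nt upstream, 6 young and 8 old, were counted for both relatives, since the first 18 nt from there are the same. At the 3′ end they were less uniform. The annotated form of miR-146b, 22 nt long, held 763 of 3607 reads young and 724 of 3518 old, and its most read form was 2 nt longer:
miR-146b, most read form: tgagaactgaattccataggctgt
with 1369 reads young and 1208 old. These 2 extra bases follow the hairpin. By contrast, 44.7% of miR-146a reads young and 42.4% old ended in 1 to 3 bases that the hairpin does not hold, most often a single T (19.3% young, 17.4% old), and for miR-146b this share was 32.3% and 33.7%, most often a single A (13.7% and 14.0%). A difference in the share with 1 to 3 added bases did not pass the test in either (Fisher's exact test, two-sided, p = 0.526 in miR-146a and 0.227 in miR-146b), while a single added G in miR-146b fell from 3.88% to 2.96% (Fisher's exact test, p = 0.0369).

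The lengths of miR-146b differed between the libraries, which was tested after the values were seen. Reads of 23 nt rose from 522 (14.5%) to 730 (20.8%) (Fisher's exact test, two-sided, p = 3.49e-12), reads of 24 nt fell from 47.5% to 44.3% (Fisher's exact test, p = 0.00723), and reads of 26 nt fell from 159 (4.41%) to 57 (1.62%) (Fisher's exact test, p = 3.41e-12). The most read form fell from 38.0% to 34.3% of the start (Fisher's exact test, p = 0.0016). Reads of 22 nt, the annotated length, stood at 27.7% in both, and the mean length was 23.3 nt young and 23.2 nt old. In miR-146a no length passed the test (Fisher's exact test, p from 0.135 to 0.884 over its 7 lengths). These p-values are unadjusted, out of 30 tests of single lengths over the 4 members.

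mmu-miR-21, made in many cell types including glia, was the member with the most reads and the narrowest interval. Its log2 ratio was -0.012 (-0.049 to 0.025), and it was not called (exact binomial test, adjusted p = 0.565). It ranked 54 of 268, and it was called higher where the scaling raised the median: 0.71 with TMM, 0.70 with DESeq2 and 0.36 without let-7. With the GC trend removed it was called lower at -0.46, against a median of -0.69 for all starts. It was also called lower, by a small amount, with known miRNA depth (-0.074) and with undetermined bases allowed to match (-0.067). Reads with an undetermined base made up 4.57% of the young and 1.07% of the old library, and a ratio this close to 0 is of the size that such losses can move. By the same 2 log2 levels, the known miRNAs nearest to miR-21 were mmu-miR-7a at 2654 RPM young and 1940 old, mmu-miR-340-5p at 2378 and 2781, and mmu-miR-222 at 2109 and 1724, with distances of 0.32, 0.36 and 0.36. This likeness rests on 2 libraries.

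The 3′ ends of miR-21 also differed between the libraries. Its 2 main forms were 21 and 22 nt long:
miR-21, 21 nt: tagcttatcagactgatgttg
miR-21, 22 nt: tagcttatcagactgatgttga
The shorter had 3744 reads young and 5088 old, and the longer, the annotated form, 3578 and 5248. Reads shorter than the annotated form fell from 42.8% (Wilson 95% interval 41.8 to 43.8) to 39.3% (38.5 to 40.1) of the start (Fisher's exact test, two-sided, p = 5.37e-08), and longer reads rose from 20.4% to 23.3% (Fisher's exact test, p = 7.54e-08). Reads ending in 1 to 3 bases that the hairpin does not hold rose from 6.54% (6.07 to 7.04) to 8.46% (8.02 to 8.92) (Fisher's exact test, p = 2.35e-08). A single added A rose from 3.61% to 4.45% (Fisher's exact test, p = 0.00109) and a single added T from 0.869% to 1.32% (Fisher's exact test, p = 0.000936). These are unadjusted p-values out of 40 such tests over the 4 members, and with 1 library per age, library and age cannot be told apart. The share of the annotated form itself stayed at 35.7% and 35.9%. Across all starts with enough reads, that share was called higher in 4.84% and lower in 10.9%, and it was called in none of the 4 members (Fisher's exact test, adjusted p from 0.629 to 0.977). The other strand of the miR-21 hairpin had 24 reads young and 30 old.

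**Figure D3:**
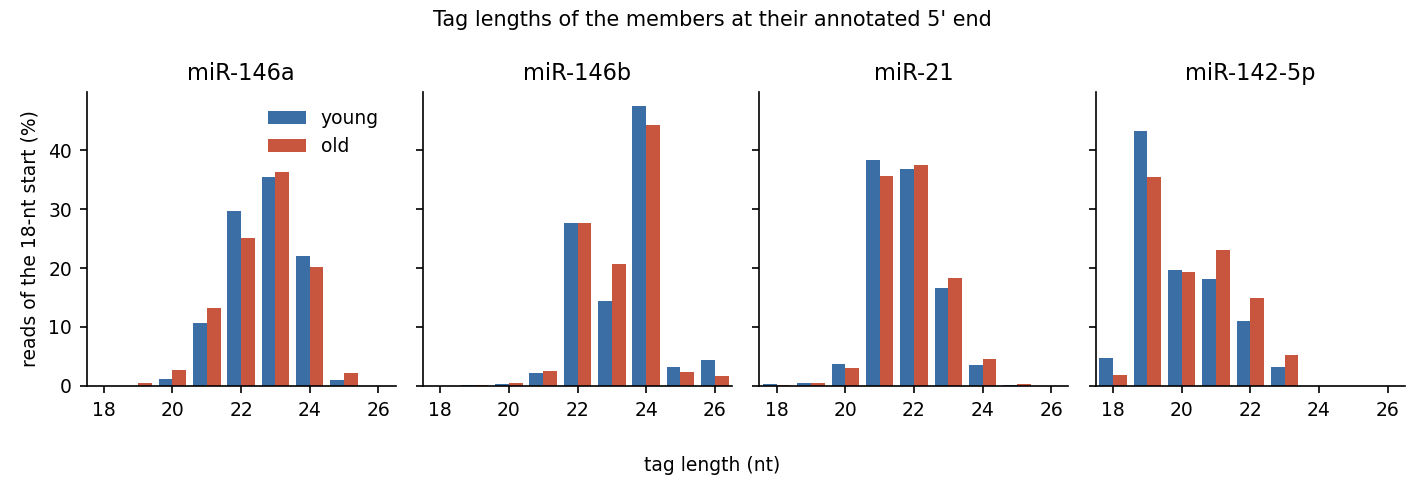
Share of reads by tag length, in nucleotides, at the annotated 5′ end of 4 miRNAs in the young (blue) and old (red) library; each bar is the percent of the reads of that 18-nt start. miR-146b peaks at 24 nt, 2 nt beyond its annotated length, and miR-142-5p at 19 nt, 2 nt short of it, in both libraries.

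mmu-miR-142-5p, from a locus active in haematopoietic cells, was the only one of the 4 called higher with total reads. Its 18-nt start rose from 127 to 268 reads, a log2 ratio of 0.52 (0.21 to 0.84; exact binomial test, adjusted p = 0.0011), and ranked 20 of 268. The annotated form alone rose from 21 to 57 reads, 0.88 on the log2 scale (0.14 to 1.68; exact binomial test, adjusted p = 0.0211). The call did not hold with the trend on GC content removed, which sets every start to the mean GC content. There the log2 ratio was -0.044 (exact binomial test, adjusted p = 0.815), against a median of -0.69 for all starts, and relative to the trend itself miR-142-5p lay 0.58 above the value fitted at its own GC content, -0.059. Over the 268 starts the log2 ratio fell by 0.37 for each 10% of GC (Pearson's r = -0.52 across starts, which share their libraries and are not replicates). The 4 members hold 33.3 to 40.9% GC against a median of 47.6%, and miR-142-5p the least. The part of base composition in this result was not tested further.

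**Figure D4:**
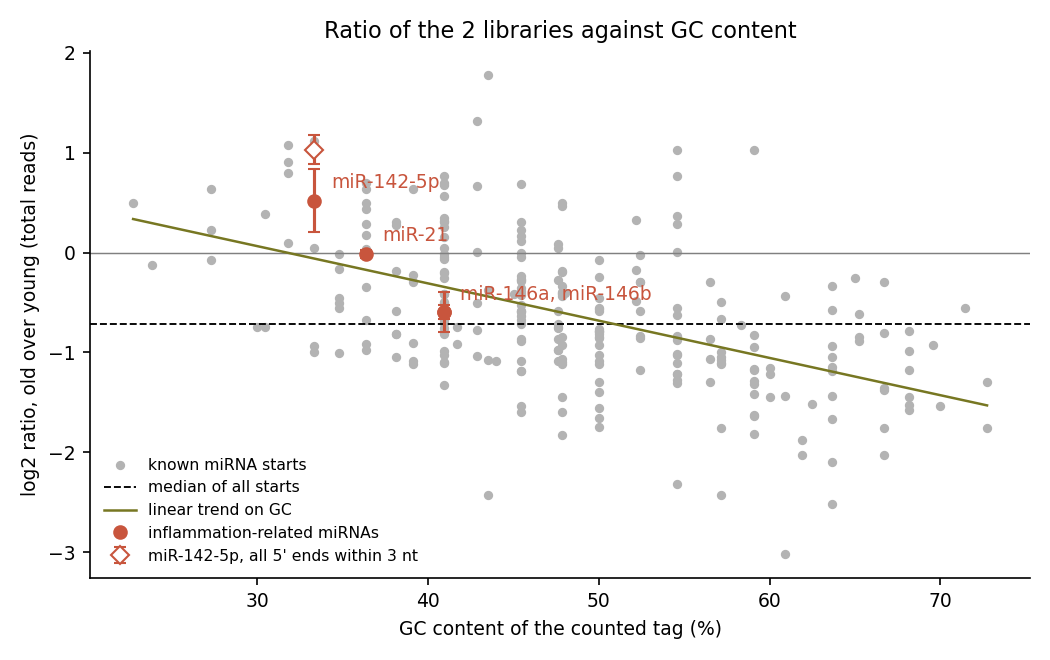
Log2 ratio of old over young (total reads) against GC content (%) for the 268 known miRNA starts (grey), with the 4 members in red (bars: 95% counting intervals), the dashed median and the linear trend. By its 18-nt start miR-142-5p, at 33.3% GC, lies 0.58 above the trend, miR-21 0.16 above it and miR-146a and miR-146b 0.25 below it. The open diamond is miR-142-5p with all 5′ ends within 3 nt counted, placed at the GC content of its annotated form.

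Most reads of the miR-142-5p strand did not begin at the annotated 5′ end. Looking at all 5′ ends within 3 nt, which was done after its values were seen, reads that begin 2 nt upstream made up 326 of 514 young (63.4%, Wilson 95% interval 59.2 to 67.5) and 1091 of 1544 old (70.7%, 68.3 to 72.9), against 24.7% and 17.4% at the annotated end. Of 237 known miRNAs with a reference hairpin and at least 10 reads in this window, 15 (6.33%) had most reads at another 5′ end than the annotated one, and 3 (1.27%) at 2 nt or more from it. The most read sequence at each end is shown, since the end sets which bases form the seed (bases 2 to 8, in capitals):
3 nt upstream: aCCCATAAagtagaaagcacta
2 nt upstream: cCCATAAAgtagaaagcacta
annotated end: cATAAAGTagaaagcacta
1 nt downstream: aTAAAGTAgaaagcactactaa
The form 2 nt upstream matched the genome once, at chr11:87570367-87570387, and its seed was found in no known miRNA counted here. It had 139 reads young and 528 old, against 55 and 93 for the most read form at the annotated end.

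The reads 2 nt upstream rose from 72.1 to 164 RPM, 2.27-fold (2.01 to 2.58; exact binomial test, unadjusted p = 1.18e-43), and those 3 nt upstream from 31 to 117 reads, 2.56-fold (1.71 to 3.94). Those 1 nt downstream, with 28 and 56 reads, had a ratio of 1.36 (0.849 to 2.22). The upstream forms thus rose by more than the annotated one. The share of the annotated end in the window fell from 24.7% to 17.4% (Fisher's exact test, adjusted p = 0.00496 over 218 windows, of which 5.96% were called lower and 1.83% higher). Both ends of the molecule were shifted: among reads that follow the hairpin, 47.8% young and 55.1% old of those 2 nt upstream also ended 2 nt before the annotated 3′ end, which leaves the length at 21 nt. The 3′ end was shared with the reads at the annotated 5′ end, of which 49.1% and 42.7% ended at that same base.

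Counted over the whole 5′ window, mmu-miR-142-5p rose from 514 reads (114 RPM) to 1544 (232 RPM), a ratio of 2.04 (1.85 to 2.26; log2 1.03, 0.88 to 1.18; exact binomial test, adjusted p = 1.65e-48), and ranked 6 of 237. Of these 237 windows 10.1% were called higher and 62.9% lower, and 3.38% were at least 2-fold higher and 29.1% at least 2-fold lower. The window stayed higher under every depth scaling, from 0.97 with known miRNA depth to 1.75 with TMM, and at 0.49 with the GC trend removed (exact binomial test, adjusted p = 1.76e-11). That removal used the GC content of the annotated form, 33.3%, although most reads of the window began 2 nt upstream. With an assumed spread between libraries of 20% it was not called (edgeR exact test, adjusted p = 0.0649), nor was it with a spread of 0.4. In the window, the level of miR-142-5p was above that of miR-146a at both ages, 114 against 92.9 RPM young and 232 against 62.0 RPM old, so the order of these 2 depends on which 5′ ends are counted.

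**Figure D5:**
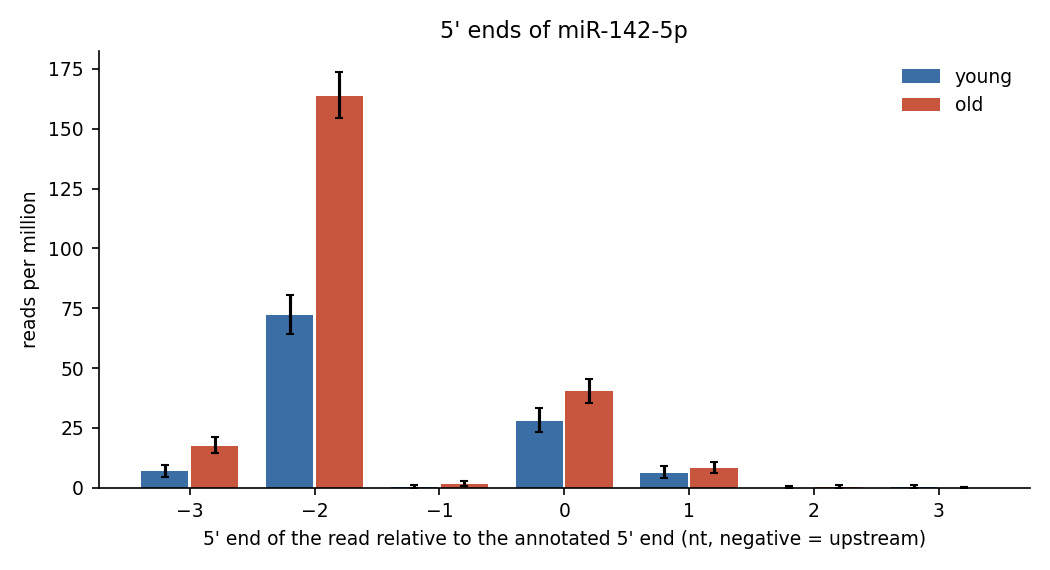
RPM of miR-142-5p by the position of the 5′ end in nucleotides from the annotated end, in the young (blue) and old (red) library, with 95% Poisson intervals of the counts. The tallest pair lies 2 nt upstream, at 72.1 and 164 RPM, against 28.1 and 40.2 RPM at the annotated end.

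The other strand of the hairpin, mmu-miR-142-3p, had 6 reads young and 9 old within 3 nt of its annotated end, of which 4 and 5 began 1 nt downstream and none at the annotated end. It made up 1.15% of the hairpin's reads young and 0.580% old (Fisher's exact test, two-sided, p = 0.228). mmu-miR-223, a miRNA of myeloid cells, had a log2 ratio of -0.24 with an interval from -2.45 to 2.10, and the other strand of its hairpin had 1 read young and 6 old. For mmu-miR-155, 2 reads young and 0 old gave an exact binomial p of 0.164. A difference in these 3 was not detectable at this depth.

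The known miRNAs nearest to mmu-miR-142-5p in the 2 log2 levels of its start were mmu-miR-384-3p at 33.2 RPM young and 31.5 old, mmu-miR-499 at 39.1 and 40.4, and mmu-miR-369-3p at 40.0 and 36.8, with distances of 0.43, 0.48 and 0.53. Each of the 3 was closer to level between the libraries than miR-142-5p itself.

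Most other miRNAs of inflammation and immune cells were called lower, as were most known miRNAs. Of 24 listed, 22 starts were tested, with 17 called lower, 0 higher and 5 neither, beside 66.4% lower and 9.33% higher over all starts (exact binomial test; median log2 ratio -0.49, against -0.72 for all starts). At an unadjusted p under 0.05, 1 of the 22 was higher by the exact test and 1 by the random sampling model of DEGseq, and 0 by the edgeR exact test with an assumed spread of 20%. With TMM factors 14 of the 22 were called higher, beside 102 of all 268 starts with the same factors. The 3 with the most reads were mmu-miR-29a (77341 to 67108 RPM, log2 -0.20), mmu-miR-124 (39418 to 17001 RPM, log2 -1.21), which also keeps microglia quiescent, and mmu-miR-181a (7373 to 3405 RPM, log2 -1.11). Marker miRNAs of brain cell types were read in both libraries. The 3 neuronal miRNAs, mmu-miR-124, mmu-miR-128 (22807 to 13512 RPM) and mmu-miR-9 (4399 to 2989 RPM), were all called lower, as were both of oligodendrocytes, mmu-miR-219-5p (1016 to 493 RPM) and mmu-miR-338-3p (240 to 147 RPM). Of 3 tested vessel miRNAs, 1 was called lower, mmu-miR-143 (5892 to 3234 RPM), and mmu-miR-126-5p (log2 -0.18) and mmu-miR-126-3p (log2 0.23) were not called. TMM scaling moved each of these log2 ratios up by 0.73. It put mmu-miR-29a, mmu-miR-9 and mmu-miR-126-5p (0.54, 0.29 to 0.79) above 0, and mmu-miR-126-3p at 0.95 (0.48 to 1.43). mmu-miR-338-3p was then level at 0.016 (-0.11 to 0.14). mmu-miR-124, mmu-miR-181a, mmu-miR-128, mmu-miR-219-5p and mmu-miR-143 stayed below 0 with TMM. mmu-miR-29a and mmu-miR-126-5p were above 0 also without let-7, which moved each log2 ratio up by 0.37.

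Red blood cell miRNAs are given because miR-142 and miR-223 are also carried by blood cells in vessels. All 3 were called lower, as were 66.4% of all starts, and the median log2 ratio of all starts was -0.72. mmu-miR-451 went from 255 to 135 RPM (log2 -0.92), mmu-miR-144 from 39.6 to 23.6 RPM (log2 -0.75) and mmu-miR-486 from 311 to 163 RPM (log2 -0.93). Summed, the 3 went from 606 to 322 RPM. With TMM scaling mmu-miR-451 was at -0.19 (-0.32 to -0.064) and mmu-miR-486 at -0.21 (-0.32 to -0.092), whereas mmu-miR-144 was level at -0.022 (-0.34 to 0.30). By total reads all 3 moved opposite to the 18-nt start of miR-142-5p, but 80.6% of all starts also had a log2 ratio below 0. White blood cells have no marker among them, and the part of residual blood in the miR-142-5p reads was not tested.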

How the data were processed

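The authors isolated RNA of 18 to 30 nt from brain, sequenced it in 36-nt reads, trimmed the 3′ adapter, aligned to mm9 and deposited collapsed sequences, each with its raw, unnormalized read counts, and unaligned reads were not analysed here. The members and lists were chosen with earlier results of these data known. All 8 members were to be named, with the 3 nearest known miRNAs of the most read and of the highest-ratio member, and the 3 most read of each list.

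Each known miRNA name without a star in the study's supplementary list was tied to the sequence whose 2 counts equal the listed ones, or to its RefSeq mature sequence where that was not unique. Of 405 names, 173 were tied by counts and 175 by sequence, and 57 were left out. miR-142-3p was counted by its mature sequence. Reads sharing the first 18 nucleotides were added. Starts with at least 10 reads in a library were tested by a two-sided exact binomial test against the ratio of total reads (1.47), adjusted by Benjamini-Hochberg over all 268. A quasi-likelihood fit needs replicates and was not made. edgeR 4.0.16 and DESeq2 1.42.0 (R 4.3.3) gave scaling factors and tests with an assumed spread. Ratio intervals are Clopper-Pearson, shares Wilson, levels Poisson, at 95%. Shares were compared by Fisher's exact test. Sequences were matched to NCBIM37 (mm9). The exact test was run on simulated Poisson counts. These hold no spread between libraries, so the check says nothing about the spread between mice. Python 3.11.15, numpy 2.4.6, scipy 1.17.1 and matplotlib 3.10.9 were used.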

Additional observations from a re-analysis of the deposited data

Results flagged for a closer look

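Reads of miR-142-5p that begin 2 nt upstream of the annotated 5′ end lie outside the 18-nt start that was compared for every miRNA, and they were more numerous than that start in both libraries, with 326 reads in the young and 1091 in the old library against 127 and 268. Both counts are far above the 3 reads that a count of 0 allows.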

How the results depend on the processing

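No paired analysis was possible because there is 1 library per age, and no library could be left out for the same reason; the spread between mice is unknown. The cause of each change below was not tested, apart from what the setting itself does. Direction turned for miR-146a with TMM (0.13) and DESeq2 factors (0.12), for miR-146b with the same (0.13 and 0.12, both called higher), for miR-21 with TMM (0.71), DESeq2 (0.70) and without let-7 (0.36), and for miR-142-5p with the GC trend removed (-0.044). The 1 member called higher became 3 with TMM and DESeq2, 2 without let-7, and 0 with the GC trend removed or an assumed spread of 0.2 or 0.4; the 2 called lower became 0 with TMM, DESeq2 and both assumed spreads. The 25 starts called higher became 102 with TMM and DESeq2, 54 without let-7, 14 with the GC trend removed, and 2 or 0 with a spread of 0.2 or 0.4. The 178 called lower became 74 with TMM, 75 with DESeq2, and 43 or 0 with a spread of 0.2 or 0.4. The 6 at least 2-fold higher became 35 with TMM and DESeq2, 18 without let-7, 12 with no read minimum and 3 with a minimum of 50 reads; the 83 at least 2-fold lower became 15 with TMM and DESeq2 and 35 without let-7. The partner-strand share of miR-21, not different by annotated starts, differed by position in the hairpin (old minus young -0.21 percentage points, Fisher's exact test, p = 0.0307). The 5′ window of 3 nt, and its combinations with the scalings, were chosen after seeing the data. Depth limits miR-223, miR-155 and miR-142-3p, each under 10 reads at its annotated start.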

Other observations

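In the list of other inflammation and immune miRNAs, the 5 starts that were not called, named here after their values were seen, included the only 4 of the list with a log2 ratio above 0 by total reads. mmu-miR-511-3p, whose hairpin lies in a macrophage receptor gene, had 13 reads young and 31 old, a log2 ratio of 0.70 (-0.28 to 1.75; exact binomial test, adjusted p = 0.202). mmu-miR-20a had 14 and 32 reads (0.63, -0.31 to 1.66), and mmu-miR-17, of the same cluster, had 63 and 128 (0.46, 0.019 to 0.92; exact binomial test, adjusted p = 0.051), whereas mmu-miR-92a of that cluster fell from 98 to 70 reads (-1.04, -1.51 to -0.59). mmu-miR-24 was at 1689 RPM young and 1694 RPM old. mmu-miR-203 had 100 and 146 reads, a log2 ratio of -0.012. All of these move up by 0.73 on the log2 scale with TMM factors.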
